A study of Homo sapiens with 12 samples.

Results

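G3BP2 and 9 genes of its stress granule network were followed across 12 poly(A)+ RNA libraries of HEK293T cells, an immortalized human embryonic kidney line. The 10 genes are G3BP1, G3BP2, CAPRIN1, USP10, UBAP2L, TIA1, TIAL1, ATXN2, ATXN2L and PABPC1, found by symbol among 63541 gene IDs in the deposited table. G3BP2 was selected because its RNA was much higher with the siRNAs against snaR-A than with scramble siRNA. The comparisons of G3BP2 with scramble and between siRNAs are therefore given as a description without a test. The other 9 were chosen as its paralog and partners in granules. All 10 genes were among the 21999 genes with enough counts to be tested.

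All libraries came from HEK293T cells collected 48 h after transfection with 12.5 nM siRNA by lipofection. The control group received a scramble siRNA, and the other groups received si-snaR-A#1, si-snaR-A#2 or si-snaR-A#3 (siRNAs #1, #2 and #3 from here on), each directed against snaR-A, a small noncoding RNA made by RNA polymerase III. The study designed all 3 against 3′-proximal sequences of snaR-A, and the siRNA sequences it lists overlap. Agreement between these siRNAs is therefore not agreement between separate target sites. Each of the 4 groups had 3 replicates. The study sequenced RNA mainly to ask how snaR-A bears on splicing, and here the same libraries are compared by RNA level per gene. No untransfected group was analysed here, so a higher level with the snaR-A siRNAs and a lower level with the scramble siRNA cannot be told apart. The table held no ID for snaR-A under a SNAR- symbol, so the depletion itself cannot be read here and offers no check of the group labels.

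Stress granules are condensates of mRNA and protein that form in the cytoplasm when translation initiation stalls, most often after phosphorylation of the initiation factor eIF2 alpha. G3BP1 and G3BP2 are RNA-binding proteins at the centre of the granule network, and cells that lack both do not form granules in response to many stresses. CAPRIN1 and UBAP2L bind G3BP and favour assembly, whereas USP10, a deubiquitinase, binds G3BP and opposes it. TIA1, TIAL1, ATXN2, ATXN2L and PABPC1 bind mRNA or its poly(A) tail and are found in granules. These libraries measure RNA per gene and hold no measure of granules or of protein. In other assays the study reported more G3BP2 protein after snaR-A depletion, and larger stress granules in depleted cells treated with arsenite. The study also placed G3BP2 among genes whose intron retention, a measure of unspliced transcripts, changed after depletion.

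The libraries held between 120.4 and 180.1 M counts, and tested genes took between 99.98% and 99.99% of each library. Vimentin (VIM, 462 to 767 CPM) and the neurofilament genes NEFL (137 to 233 CPM) and NEFM (244 to 462 CPM), which HEK293 cells are known to express, were high in every library, and the epithelial keratins KRT8 (6.93 to 8.87 CPM) and KRT18 (27.9 to 34.9 CPM) and the kidney gene PAX2 (4.57 to 7.36 CPM) were lower. Here CPM is a gene's count scaled to the TMM-adjusted library size. Leukocyte, endothelial and liver markers (PTPRC, PECAM1 and ALB) stayed at or below 0.134 CPM. HBB was at 0 in all libraries, CD3E reached 0.00808 CPM, and the fibroblast gene COL1A1 was between 13.0 and 27.0 CPM. Some of these genes moved with the groups. From 25.4 CPM in scramble, the COL1A1 mean went to 22.6, 20.1 and 13.6 CPM for siRNAs #1 to #3, and it fell with each (log2 -0.17, -0.34 and -0.90, edgeR adjusted p 0.0319, 9.6e-04 and 4.1e-07). NEFM averaged 258 CPM in scramble and 279.7, 448 and 354 CPM, and VIM 543 CPM and 508, 754 and 659 CPM, and both rose with siRNA #2 (log2 0.79 and 0.47, edgeR adjusted p 1.4e-07 and 1.6e-04) and siRNA #3 (0.45 and 0.28, edgeR adjusted p 9.6e-06 and 0.00546). NEFL rose with siRNA #2 alone (0.52, edgeR adjusted p 5.8e-05), PAX2 with siRNA #1 alone (0.40, edgeR adjusted p 9.2e-04) and KRT18 with siRNA #3 alone (0.17, edgeR adjusted p 0.022). The 3 siRNA #1 libraries stood apart on the first principal component (37.8% of the variance), at -44.7 to -36.7 against 7.09 to 17.5 for the other 9. Mitochondrial genes took 3.66% to 4.53% of counts with siRNA #1, 4.78% to 6.05% with scramble and 4.06% to 5.83% with siRNAs #2 and #3. Results for the 10 genes are therefore given per siRNA, and the part of these differences in the results was not tested.

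G3BP1 and G3BP2 encode proteins of the same architecture, and the beginnings of their coding sequences show how alike the RNAs are and where reads can tell them apart. Below are the first 84 coding bases of the MANE Select transcripts (the reference transcript of each gene, GENCODE release 44, GRCh38), 5′ to 3′, at chr5:151786621-151786704 on the plus strand for G3BP1 and chr4:75661942-75662025 on the minus strand for G3BP2. Capitals mark the bases that differ between both genes.
G3BP1: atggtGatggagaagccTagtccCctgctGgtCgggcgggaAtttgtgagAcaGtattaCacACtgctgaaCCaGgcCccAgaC
G3BP2: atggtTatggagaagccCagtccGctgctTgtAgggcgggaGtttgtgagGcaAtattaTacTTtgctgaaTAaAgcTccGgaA
The stretches were 79.8% identical, with 17 of the 84 bases different. Over the whole coding sequences 964 of 1350 aligned bases were the same (71.4%), and the longest identical run was 17 bases. The MANE Select transcript of G3BP2 shared 0 words of 31 bases with any other annotated gene, and 1.67% of the G3BP1 words occurred elsewhere, mostly in the pseudogene G3BP1P1 (0.0808 to 0.211 CPM).

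G3BP2 (ENSG00000138757) lies on chromosome 4 of GRCh38 from 75641849 to 75724589 on the minus strand. Its level in scramble libraries was 137, 139.7 and 141 CPM. With siRNA #1 it was 328, 314 and 292 CPM, with siRNA #2 448, 444 and 455 CPM, and with siRNA #3 452, 446 and 443 CPM. All 9 snaR-A siRNA libraries lay above all 3 scramble libraries, and the siRNA #1 libraries lay between scramble and the other groups without overlap. In bulk RNA, a change in RNA per cell and a change in the number of cells that carry it cannot be told apart.

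The group means were 139 ± 1.91 CPM in scramble, 311 ± 18.2 CPM with siRNA #1, 449 ± 5.34 CPM with siRNA #2 and 447 ± 4.78 CPM with siRNA #3 (SD, n = 3 each). Against scramble these were differences of 2.23-fold, 3.22-fold and 3.21-fold, or 1.16, 1.69 and 1.68 on the log2 scale (SE 0.04 each). The mean of the 3 siRNAs was 2.85-fold above scramble, and this was the 11th largest rise of the 14529 genes that averaged 1 CPM or more. Without the siRNA #1 libraries the mean log2 difference was 1.69.

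The siRNAs were also compared with each other. The choice of G3BP2 rested on these same libraries, so the differences are given without a test. G3BP2 was lower with siRNA #1 than with siRNA #2, by a log2 difference of -0.53 (SE 0.04). It was also lower than with siRNA #3, by -0.52 (SE 0.04). Between siRNAs #2 and #3 the log2 difference was 0.01. The order of the means was thus scramble, siRNA #1, and then siRNAs #3 and #2, whose libraries overlapped.

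The exons of G3BP2 share 13 bases with those of USO1, a vesicle tethering factor on the opposite strand, and the use of strand in read assignment is not stated. USO1 was at 201 CPM in scramble and at 161, 249.6 and 259 CPM with the 3 siRNAs in order, so it was below its scramble level with siRNA #1, where G3BP2 was above its own. No other annotated gene with counts shared exon bases with G3BP2.

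**Figure D1:**
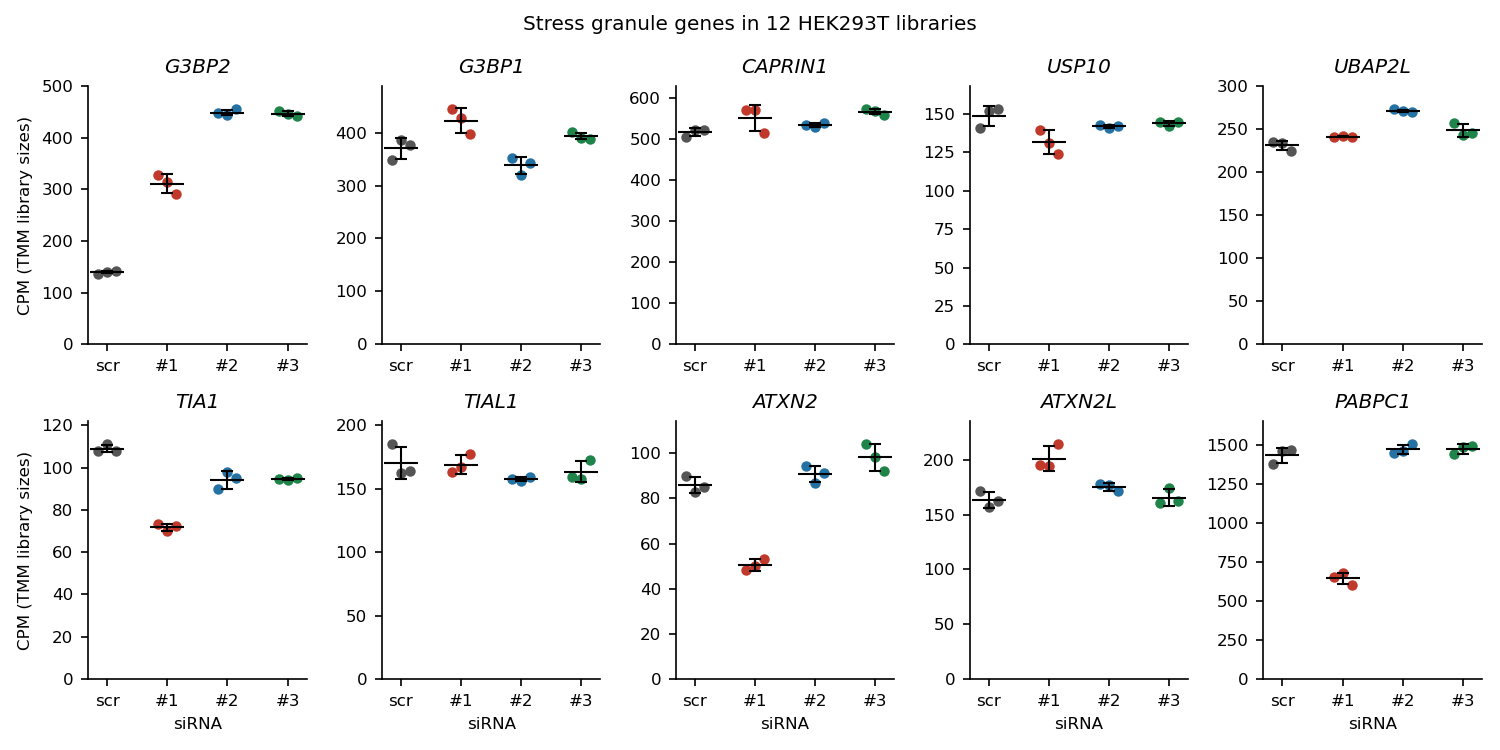
Level of each of the 10 genes in CPM of TMM-scaled libraries (vertical axes, linear, from 0) in scramble (scr) and the 3 snaR-A siRNA groups (#1, #2, #3). Points are libraries, and bars give the mean and SD of 3 replicates; G3BP2 is higher in all 9 snaR-A siRNA libraries than in scramble, while PABPC1 and ATXN2 are low in the siRNA #1 libraries alone.

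G3BP1 (ENSG00000145907, chromosome 5, 151771045 to 151812911, plus strand), the paralog of G3BP2, did not follow it. It was at 348, 386 and 377 CPM in scramble, 444, 427 and 397 CPM with siRNA #1, 352, 321 and 342 CPM with siRNA #2, and 401, 391 and 389 CPM with siRNA #3. The siRNA #1 and #3 libraries lay above every scramble library, and the siRNA #2 libraries overlapped scramble at its lower end. G3BP1 rose with siRNA #1 by 0.19 on the log2 scale (SE 0.05, edgeR adjusted p 0.00983). With siRNA #2 the difference was -0.13 (edgeR adjusted p 0.0885) and with siRNA #3 it was 0.09 (edgeR adjusted p 0.236), and neither passed. The lower level with siRNA #2 did pass under upper quartile scaling (-0.18, edgeR adjusted p 0.0147) and when only genes averaging 1 CPM were kept (-0.14, edgeR adjusted p 0.0288). It also passed without scramble replicate 1 (-0.17, edgeR adjusted p 0.0402). G3BP1 was higher with siRNA #1 than with siRNA #2 (log2 difference 0.32, edgeR adjusted p 2.5e-04) and lower with siRNA #2 than with siRNA #3 (-0.22, edgeR adjusted p 0.0134). The second of these calls was lost without siRNA #2 replicate 2 (edgeR adjusted p 0.0708).

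The balance of the pair therefore differed by siRNA, and it is described without a test because it holds the selected gene. The ratio of G3BP2 to G3BP1 in CPM was 0.376 ± 0.0163 in scramble, 0.736 ± 0.00269 with siRNA #1, 1.33 ± 0.0556 with siRNA #2 and 1.14 ± 0.00657 with siRNA #3 (SD, n = 3 each). No library of one group overlapped another group in this ratio. CPM counts more reads from a longer transcript, and the MANE Select transcript of G3BP1 (10.23 kb) is longer than that of G3BP2 (4.32 kb). Per kilobase of these transcripts, G3BP2 made up 47.1% ± 1.07 of the pair in scramble and 63.5% ± 0.0845, 75.9% ± 0.767 and 72.9% ± 0.115 with the siRNAs in order (SD, n = 3 each). With the merged exons of all annotated transcripts as the length, the shares were 35.3%, 51.6%, 65.9% and 62.3%, so that G3BP2 was the smaller part in scramble and the larger part with each siRNA on both scales, while the size of its share depended on the length used. The summed level of both genes was 509.6 ± 21.6 CPM in scramble, and with siRNAs #1 to #3 it was 734 ± 41.8, 787 ± 19.1 and 841 ± 11.0 CPM (SD, n = 3 each).

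**Figure D2:**
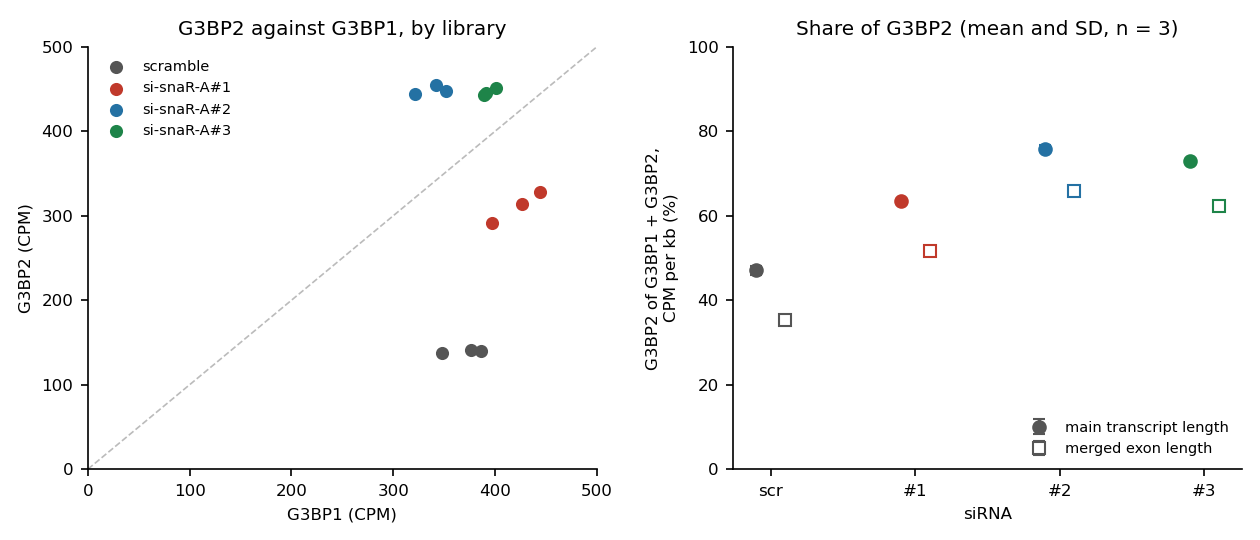
Left, G3BP2 against G3BP1 in CPM, each point a library, with a dashed line where both are equal; the siRNA #2 and #3 libraries lie above the line and the scramble and siRNA #1 libraries below it. Right, the share of G3BP2 in the pair per kilobase in percent (mean and SD, n = 3), with filled circles for the MANE Select transcript length and open squares for merged exons, rising from 47.1% in scramble to 75.9% with siRNA #2 on the first scale.

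Of the 9 genes other than G3BP2, edgeR's quasi-likelihood test called 6 with siRNA #1 (2 higher, 4 lower), where 45.2% of all tested genes were called (21.9% higher, 23.3% lower). It called 2 of 9 with siRNA #2 (1 higher, 1 lower) against a background of 25.8% (13.7% higher, 12.1% lower). With siRNA #3 it called 4 of 9 (3 higher, 1 lower) against 29.4% (16.5% higher, 13.0% lower). These counts are of few genes, the background was not matched to them for RNA level, and their difference from the background was not tested. The median log2 fold change of the 9 genes was -0.01, 0.04 and 0.04 with the siRNAs in order, and that of all genes was -0.02, -0.03 and -0.03. The 3 comparisons share their scramble libraries.

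The G3BP partners changed little. CAPRIN1, an RNA-binding protein that favours condensation of G3BP, was at 517 ± 9.32 CPM in scramble, and its means with the siRNAs were 552 ± 32.3, 534 ± 5.29 and 567 ± 6.55 CPM (SD, n = 3 each). Its rise with siRNA #3 was 0.13 on the log2 scale (SE 0.04, edgeR adjusted p 0.0315), and the call was lost without any single scramble library or without replicate 1 or 2 of siRNA #3 (adjusted p 0.056 to 0.107). It was also lost under upper quartile scaling (0.08, adjusted p 0.0904), with no filter on low counts (adjusted p 0.105) and with a replicate block (adjusted p 0.0515). With siRNAs #1 and #2 the CAPRIN1 differences were 0.09 and 0.05 (edgeR adjusted p 0.0888 and 0.468), and neither passed. The rise with siRNA #1 did pass with a 1 CPM filter (0.12, edgeR adjusted p 0.00667) and under upper quartile scaling (0.10, edgeR adjusted p 0.0267). Without replicate 3 of siRNA #1 it also passed (0.14, edgeR adjusted p 0.00514). UBAP2L, which binds G3BP and promotes assembly, was at 235, 234 and 225 CPM in scramble and at 273, 271 and 270.4 CPM with siRNA #2, with no overlap. The rise with siRNA #2 was 0.23 (SE 0.03, edgeR adjusted p 3.0e-04). With siRNA #3 it was 0.10 (edgeR adjusted p 0.0359), a call lost without replicate 1, 2 or 3 of scramble, replicate 1, 2 or 3 of siRNA #2 or replicate 1 of siRNA #3 (adjusted p 0.0518 to 0.126), and with siRNA #1 the difference was 0.06 (edgeR adjusted p 0.181). The siRNA #3 call for UBAP2L was also lost under upper quartile scaling (0.05, adjusted p 0.271), edgeR's exact test (0.111), a 1 CPM filter (0.0805), no filter (0.154) and a replicate block (0.0524). With siRNA #1 the UBAP2L difference did pass with a 1 CPM filter (0.09, edgeR adjusted p 0.0393). UBAP2L was lower with siRNA #1 than with siRNA #2 by -0.17 (edgeR adjusted p 0.00111).

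USP10, the deubiquitinase that competes with CAPRIN1 for G3BP, was at 141, 152 and 153 CPM in scramble and at 139.9, 131 and 124 CPM with siRNA #1. The groups did not overlap, but replicate 1 of each lay close together, at 141 and 139.9 CPM. USP10 fell with siRNA #1 by 0.17 on the log2 scale (SE 0.05, edgeR adjusted p 0.00724). It was at 142 ± 1.02 CPM with siRNA #2 and 144 ± 1.53 CPM with siRNA #3 (SD, n = 3 each), and neither passed against scramble (edgeR adjusted p 0.295 and 0.489). Under upper quartile scaling USP10 did pass with siRNA #2 (-0.12, edgeR adjusted p 0.0417). Its lower level with siRNA #1 than with siRNA #3 (-0.13, edgeR adjusted p 0.0342) was lost without any single library of siRNA #3 or replicate 2 or 3 of siRNA #1 (adjusted p 0.0582 to 0.14). That difference was -0.07 under upper quartile scaling (adjusted p 0.169) and with a 1 CPM filter (adjusted p 0.108), and the call was also lost with edgeR's exact test (0.0834) and a replicate block (0.0549).

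TIA1, a translational repressor and splicing regulator with a prion-like domain, was the gene of the 9 that fell with every siRNA. It was at 108, 111 and 108 CPM in scramble, 73.2, 70.0 and 72.4 CPM with siRNA #1, 89.7, 98.0 and 95.1 CPM with siRNA #2, and 94.7, 94.2 and 95.1 CPM with siRNA #3. All 9 snaR-A siRNA libraries lay below all 3 scramble libraries. The log2 fold changes were -0.60, -0.21 and -0.20 (SE 0.04 each, edgeR adjusted p 7.3e-08, 0.00133 and 0.00146). The log2 difference in TIA1 was -0.39 between siRNA #1 and siRNA #2 (edgeR adjusted p 2.7e-06) and -0.40 between siRNA #1 and siRNA #3 (edgeR adjusted p 2.1e-06). Of its words of 31 bases, 3.93% occur in C2orf42, whose exons overlap those of TIA1 by 211 bases on the same strand and which was at 7.13 to 8.91 CPM on average per group, and its counts are uncertain to that extent. Its paralog TIAL1, also a translational repressor, was at 170.3 ± 12.7 CPM in scramble, with siRNA means of 169 ± 7.04, 158 ± 1.62 and 163 ± 8.14 CPM (SD, n = 3 each). TIAL1 did not pass with any siRNA (edgeR adjusted p 0.913, 0.168 and 0.434). The 95% intervals of its log2 difference were -0.13 to 0.11, -0.23 to 0.01 and -0.18 to 0.06 with the siRNAs in order.

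ATXN2, an RNA-binding protein that contacts poly(A)-binding protein and carries a polyglutamine tract, differed from scramble in opposite directions by siRNA. It was at 89.9, 83.0 and 85.2 CPM in scramble, 48.2, 50.0 and 53.3 CPM with siRNA #1, 94.3, 87.0 and 91.4 CPM with siRNA #2, and 104, 98.5 and 92.2 CPM with siRNA #3. The siRNA #1 libraries lay below all others. ATXN2 fell with siRNA #1 by 0.77 on the log2 scale (SE 0.05, edgeR adjusted p 1.7e-07), a fold of 0.587. With siRNA #3 it rose by 0.19 (SE 0.05, edgeR adjusted p 0.0174), and this call was lost without scramble replicate 2 or without replicate 1 or 2 of siRNA #3 (adjusted p 0.0503 to 0.0698) and under upper quartile scaling (0.14, adjusted p 0.0978). With siRNA #2 the difference was 0.08 (edgeR adjusted p 0.319). Compared directly, ATXN2 was lower with siRNA #1 than with siRNA #2 by -0.85 (edgeR adjusted p 7.5e-08) and than with siRNA #3 by -0.96 (edgeR adjusted p 2.3e-08). Its exons overlap 69 bases of SH2B3 on the opposite strand, which was at 32.9 CPM in scramble and 49.1 CPM with siRNA #1.

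ATXN2L, the paralog of ATXN2 and also a granule component, went the other way with siRNA #1. It was at 171, 157 and 162 CPM in scramble and at 195, 194 and 214 CPM with siRNA #1, without overlap. The rise was 0.30 on the log2 scale (SE 0.05, edgeR adjusted p 3.0e-04). ATXN2L was at 175 ± 3.65 CPM with siRNA #2 and 165 ± 7.59 CPM with siRNA #3 (SD, n = 3 each), and neither passed (edgeR adjusted p 0.165 and 0.86). ATXN2L did pass with siRNA #2 under DESeq2 (0.12, DESeq2 adjusted p 0.0499) and without replicate 3 of siRNA #1 (0.12, edgeR adjusted p 0.048). It was higher with siRNA #1 than with siRNA #2 by 0.20 (edgeR adjusted p 0.00556) and than with siRNA #3 by 0.28 (edgeR adjusted p 4.1e-04).

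PABPC1, the main cytoplasmic poly(A)-binding protein, was the most abundant of the 10 per length in scramble and had the largest difference among the 9. It was at 1375, 1457 and 1464 CPM in scramble, 653, 676 and 605 CPM with siRNA #1, 1447, 1458 and 1502 CPM with siRNA #2, and 1438, 1486 and 1493 CPM with siRNA #3. The siRNA #1 libraries lay far below the other 9, which overlapped. PABPC1 fell with siRNA #1 by 1.15 on the log2 scale (SE 0.05, edgeR adjusted p 2.8e-09), a fold of 0.450. With siRNAs #2 and #3 the log2 difference was 0.04 each, with a 95% interval of -0.06 to 0.14 (edgeR adjusted p 0.622 and 0.566). It was lower with siRNA #1 than with siRNAs #2 and #3 by -1.19 each (edgeR adjusted p 2.2e-09 and 1.3e-09). Words of 31 bases shared with other genes made up 35.7% of its transcript and were most often shared with PABPC3. PABPC3 stayed at or below 0.0312 CPM and PABPC1P4 at or below 0.0297 CPM in every library, so few counts were assigned to these copies.

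**Figure D3:**
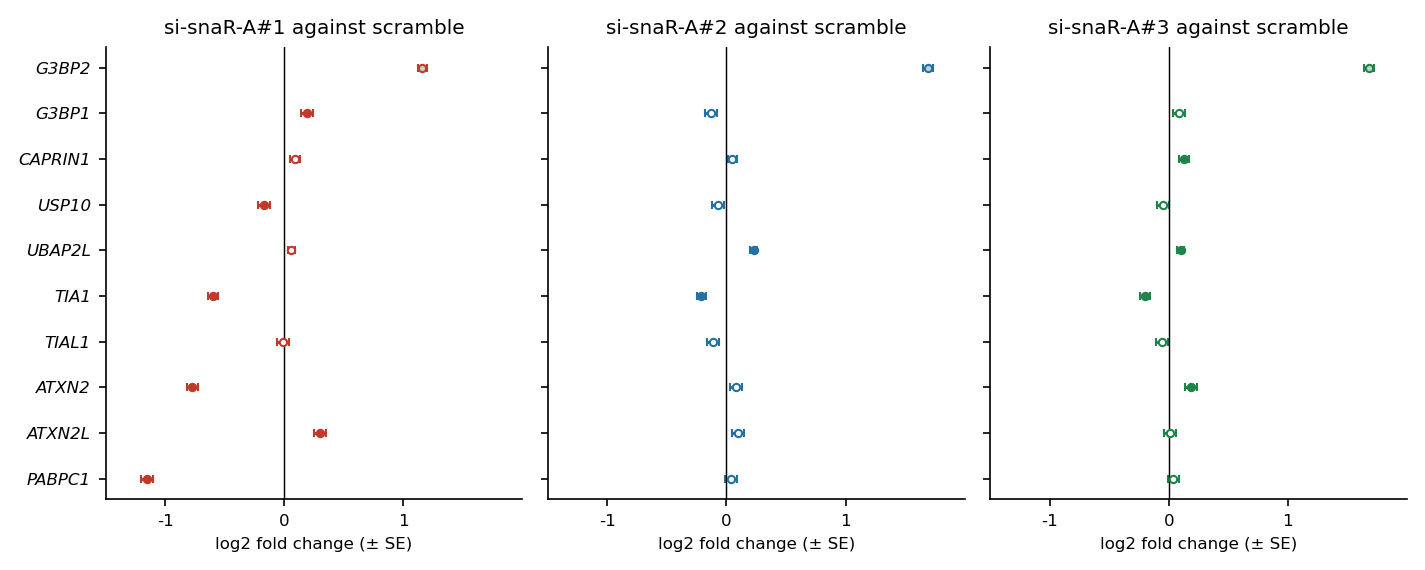
Log2 fold change against scramble (horizontal axes) with its SE for the 10 genes under each siRNA. Filled points passed an edgeR adjusted p of 0.05, open points did not, and G3BP2 in grey was selected on this comparison and not tested; the 9 other genes lie between -1.15 and 0.30 with siRNA #1 and between -0.21 and 0.23 with the other siRNAs.

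Averaged over the siRNAs and set against scramble, 5 of the 9 genes were called (2 higher, 3 lower), against 32.2% of all tested genes (15.6% higher, 16.6% lower). UBAP2L (0.13, edgeR adjusted p 0.003) and ATXN2L (0.14, edgeR adjusted p 0.0209) were higher. TIA1 (-0.33, edgeR adjusted p 4.0e-06), ATXN2 (-0.17, edgeR adjusted p 0.0095) and PABPC1 (-0.36, edgeR adjusted p 1.3e-05) were lower. CAPRIN1 (0.09, edgeR adjusted p 0.0619) and USP10 (-0.10, edgeR adjusted p 0.0633) did not pass. Both did under some alternatives, among them a 1 CPM filter (0.09 and -0.10, edgeR adjusted p 0.0161 and 0.0187). The lower means of ATXN2 and PABPC1 came from siRNA #1: with its libraries left out of the mean, the values were 0.13 (edgeR adjusted p 0.0439) and 0.04 (edgeR adjusted p 0.517). The ATXN2L call was lost without those libraries (adjusted p 0.346), without scramble replicate 2 (0.124) or without scramble replicate 3 (0.0577), and also by upper quartile scaling (0.11, adjusted p 0.0798), and the ATXN2 call without scramble replicate 1 (adjusted p 0.0679). With edgeR's exact test on the 9 snaR-A siRNA libraries pooled as 1 group, which sets the effect against the spread between siRNAs, 0 of 9 genes were called and 1 had an unadjusted p under 0.05, while limma-voom and DESeq2 called 6 each.

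Compared directly, siRNAs #1 and #2 differed in 6 of the 9 genes (2 higher, 4 lower with siRNA #1), against 46.7% of all tested genes (23.7% higher, 23.0% lower). For siRNAs #1 and #3 it was 5 of 9 (1 higher, 4 lower), against 48.6% (23.8% higher, 24.8% lower). Between siRNAs #2 and #3 only G3BP1 (lower with siRNA #2) and UBAP2L (higher, 0.12, edgeR adjusted p 0.0245) were called, against 15.6% of genes (6.52% higher, 9.03% lower). The UBAP2L call was lost without any single siRNA #2 library or without replicate 2 or 3 of siRNA #3 (adjusted p 0.0673 to 0.115) and with no filter on low counts (0.133). Without siRNA #2 replicate 2, edgeR's quasi-likelihood test called 0 of 9 genes, of which 2 had an unadjusted p under 0.05.

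Several members have close paralogs, and the ratio within a pair is independent of the scaling between libraries. The pairs and ratios were chosen after their values were seen and are given without a test, and the smallest 2-sided p of an exact permutation test of 3 against 3 libraries is 0.10. TIA1 to TIAL1 was 0.641 ± 0.0526 in scramble and 0.425 ± 0.0203, 0.598 ± 0.0302 and 0.581 ± 0.0259 with the siRNAs in order (SD, n = 3 each). ATXN2 to ATXN2L was 0.526 ± 0.00268 in scramble and 0.251 ± 0.00497, 0.518 ± 0.0244 and 0.595 ± 0.0452 (SD, n = 3 each). In both pairs the siRNA #1 libraries lay below all others. PABPC1 to PABPC4 was 7.22 ± 0.0747 in scramble and lower in every snaR-A siRNA library, at 4.16 ± 0.240, 5.91 ± 0.132 and 5.79 ± 0.0978 (SD, n = 3 each). PABPC4, a second cytoplasmic poly(A)-binding protein, itself fell with siRNA #1 by 0.36 on the log2 scale (edgeR adjusted p 4.4e-06) and rose with siRNA #2 (0.33, edgeR adjusted p 3.0e-05) and siRNA #3 (0.36, edgeR adjusted p 1.2e-05). UBAP2L to UBAP2 stayed between 4.10 and 4.42 in all libraries, and UBAP2 rose with siRNA #2 (0.20, edgeR adjusted p 0.00106) and siRNA #3 (0.15, edgeR adjusted p 0.00692). CAPRIN1 to CAPRIN2 was 12.7 ± 1.23 in scramble and 16.2 ± 2.15 with siRNA #1 (SD, n = 3 each), where CAPRIN2 fell by 0.25 (edgeR adjusted p 0.0154).

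The remaining poly(A)-binding paralogs averaged 21.6 CPM (PABPC1L) and 33.1 CPM (PABPC4L) in scramble. PABPC1L fell with siRNA #3 by 0.53 on the log2 scale (edgeR adjusted p 0.014) and did not pass with siRNA #1 (-0.34, edgeR adjusted p 0.0701). PABPC4L rose with siRNA #2 (0.26, edgeR adjusted p 0.00233) and siRNA #3 (0.23, edgeR adjusted p 0.00369). PABPC5 was at 0 in every library and, like PABPC3, was not tested.

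**Figure D4:**
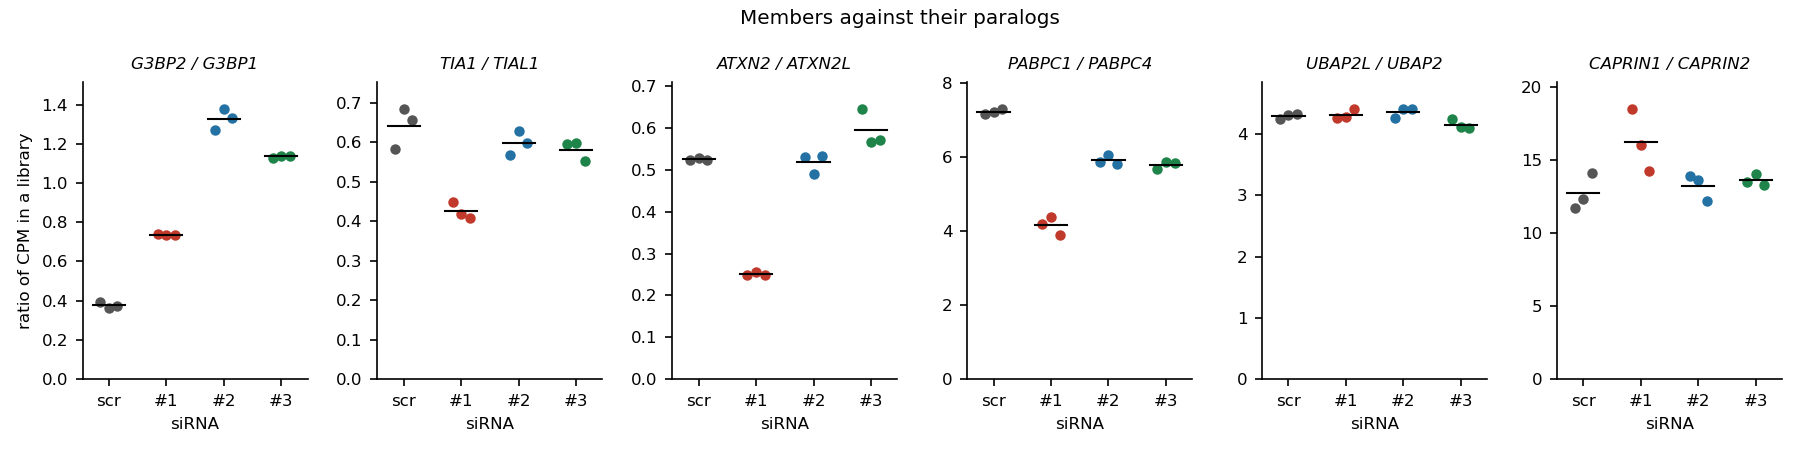
Ratio of CPM between a gene and its paralog in each library (vertical axes, linear, from 0), with the group mean as a bar (n = 3). G3BP2 to G3BP1 is higher in every snaR-A siRNA library than in scramble, the TIA1 and ATXN2 ratios are lowest with siRNA #1, and UBAP2L to UBAP2 stays between 4.10 and 4.42.

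Levels of different genes can be compared only per length. Per kilobase of MANE Select transcript, PABPC1 stood first in scramble at 501 ± 17.4 CPM per kb, followed by CAPRIN1 at 93.7 ± 1.69 and UBAP2L at 59.7 ± 1.38 (SD, n = 3 each). USP10 (44.7 ± 2.01), TIAL1 (44.5 ± 3.33), ATXN2L (36.7 ± 1.66), G3BP1 (36.2 ± 1.95) and G3BP2 (32.2 ± 0.442) followed in CPM per kb, with neighbours such as USP10 and TIAL1 or ATXN2L and G3BP1 within 1 SD of each other. TIA1 (23.5 ± 0.398) and ATXN2 (19.8 ± 0.811) were the lowest in CPM per kb of that transcript. With siRNAs #2 and #3, G3BP2 reached 104 ± 1.23 and 103 ± 1.11 CPM per kb, close to CAPRIN1 at 96.9 ± 0.960 and 103 ± 1.19 (SD, n = 3 each). The order depended on the length used. Per kilobase of merged exons, PABPC1, CAPRIN1 (56.8), UBAP2L (30.8) and USP10 (29.3) still came first in scramble, but G3BP2 (10.1) lay below TIA1 (16.5), with G3BP1 (18.5) just above TIA1 and ATXN2 (5.20) lowest. On that scale G3BP2 reached 32.5 and 32.4 CPM per kb with siRNAs #2 and #3, well below CAPRIN1 at 58.7 and 62.3. Summed over the 9 genes without G3BP2, the level was 3228 ± 60.1 CPM in scramble, 2485 ± 75.0 with siRNA #1, 3272 ± 37.4 with siRNA #2 and 3347 ± 14.5 with siRNA #3 (SD, n = 3 each), and PABPC1 made up the largest part of each sum.

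G3BP2 shared its pattern over the 12 libraries with genes outside this network. Pearson's r of log2 CPM with G3BP2 was highest for PAPSS2 (0.995), HSDL2 (0.993), FAM3C (0.993), RRBP1 (0.993) and TPM4 (0.992) among 14528 genes. TPM4, a tropomyosin, was at 138 CPM in scramble and at 317, 393 and 388 CPM with the siRNAs, and RRBP1, a ribosome-binding protein of the endoplasmic reticulum, was at 98.4, 151, 185 and 191 CPM. The lowest r values were those of MAPK8IP2 (-0.994), PSEN2 (-0.980), STMN3 (-0.979), ATL1 (-0.966) and DANCR (-0.965). Among the members, r was 0.774 for UBAP2L and 0.624 for CAPRIN1, and lay between -0.491 (TIAL1) and 0.188 (ATXN2L) for the other 7. These values describe 12 libraries in 4 groups with shared controls, so most of the spread they rest on lies between groups.

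Beyond the members, 44 of 45 listed genes of other stress granule proteins were tested. The test called 31 of them for siRNA #1 (15 up, 16 down), 20 for siRNA #2 (11 up, 9 down) and 24 for siRNA #3 (21 up, 3 down), where 45.2%, 25.8% and 29.4% of all tested genes were called (16.5% higher and 13.0% lower with siRNA #3). Their median log2 fold changes were -0.03, 0.04 and 0.11. The mean of the siRNAs called 27 (16 higher, 11 lower) against 32.2% of all tested genes, with a median of 0.01 beside -0.04 for all genes. Whether the list differed from the background was not tested, here or for the lists that follow. The background was not matched to the lists for RNA level: of its 21999 genes, 14529 averaged 1 CPM or more. The shares are therefore not a like comparison. The genes named here are among those with the largest changes in that mean.

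MCRIP2, a partner of the helicase DDX6, was at 7.77, 6.37 and 6.95 CPM in scramble and between 10.0 and 14.9 CPM in all snaR-A siRNA libraries. Its rise in the mean of the siRNAs was 0.69 on the log2 scale (SE 0.07, edgeR adjusted p 6.5e-06), and by siRNA it was 0.98, 0.56 and 0.53. TAF15, an RNA-binding protein, was at 140.5, 114 and 117 CPM in scramble and between 153 and 204 CPM in the snaR-A siRNA libraries. In the mean of the siRNAs TAF15 rose by 0.50 (SE 0.08, edgeR adjusted p 3.8e-04), and by siRNA it rose by 0.53, 0.44 and 0.52. IGF2BP3, which binds and stabilises mRNAs, fell with siRNA #1 (-0.51, edgeR adjusted p 4.5e-07) and siRNA #2 (-0.58, edgeR adjusted p 7.3e-07) and did not pass with siRNA #3 (0.09, edgeR adjusted p 0.12). Its exons overlap 1521 bases of MALSU1 on the opposite strand, which was at 16.7 to 19.6 CPM on average per group.

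P-bodies are neighbouring condensates that hold the decapping machinery, and 16 of 18 listed genes were tested. With siRNA #1, 12 were called (7 higher, 5 lower, median 0.10), with siRNA #2 6 (4 higher, 2 lower, median 0.02) and with siRNA #3 7 (6 higher, 1 lower, median 0.08). The mean of the siRNAs called 8 (6 higher, 2 lower, median 0.08). The shares of all tested genes called were 45.2%, 25.8% and 29.4% with the siRNAs in order and 32.2% in the mean. EDC3, an enhancer of decapping, was at 56.0 to 58.7 CPM in scramble and at 71.8 to 80.4 CPM in the other 9 libraries. Its log2 fold changes were 0.42, 0.36 and 0.47 by siRNA, and in the mean it rose by 0.42 (SE 0.03, edgeR adjusted p 1.2e-06). Its exons overlap 701 bases of CLK3 on the opposite strand, which was at 49.3 CPM in scramble and 55.6 to 62.6 CPM on average in the other groups. LSM7, a subunit of the LSM ring that binds deadenylated mRNA, rose by 0.38 in the mean of the siRNAs (SE 0.04, edgeR adjusted p 1.0e-05). Its log2 fold changes by siRNA were 0.67, 0.18 and 0.28.

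LSM14B, an RNA-binding protein of P-bodies, was at 66.9 to 68.5 CPM in scramble, 53.4 to 55.8 CPM with siRNAs #1 and #2, and 32.9 to 34.0 CPM with siRNA #3. It fell with each siRNA, by 0.30, 0.33 and 1.01 on the log2 scale (SE 0.03 each, edgeR adjusted p 5.9e-06, 9.9e-06 and 2.0e-09). DDX6, the helicase that represses translation and activates decapping, was at 284, 292 and 280.3 CPM in scramble and 145, 141 and 133 CPM with siRNA #1. It fell with siRNA #1 by 1.03 (SE 0.05, edgeR adjusted p 9.2e-09), and with siRNAs #2 and #3 the differences were -0.14 and -0.06 (edgeR adjusted p 0.0606 and 0.429).

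Of the 8 genes for eIF2 alpha itself (EIF2S1), its kinases and its phosphatase, which set the usual trigger of granule assembly, 4 were called with siRNA #1 (1 higher, 3 lower), 1 with siRNA #2 (higher) and 2 with siRNA #3 (1 higher, 1 lower). The mean of the siRNAs called 2 lower, with a list median of 0.03. Against 45.2%, 25.8%, 29.4% and 32.2% of all tested genes, these counts of 8 lay near or below the background. EIF2AK2, the kinase PKR that responds to double-stranded RNA, was at 137, 149 and 124 CPM in scramble and 86.7, 86.9 and 82.3 CPM with siRNA #1. It fell with siRNA #1 by 0.68 (SE 0.08, edgeR adjusted p 1.2e-05) and did not pass with the others (-0.16 and 0.11). EIF2AK1, the heme-regulated kinase HRI, was at 231 to 243 CPM in scramble and 185 to 194 CPM with siRNA #3. It fell with siRNA #3 by 0.33 (SE 0.04, edgeR adjusted p 2.2e-05) and did not pass with siRNA #1 (-0.08) or siRNA #2 (0.08). The exons of EIF2AK2 overlap 35 bases of GPATCH11, which was at 62.9 CPM in scramble and 36.4 CPM with siRNA #1, and those of EIF2AK1 overlap 532 bases of AIMP2 (26.4 to 31.7 CPM on average per group), both on the opposite strand.

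**Figure D5:**
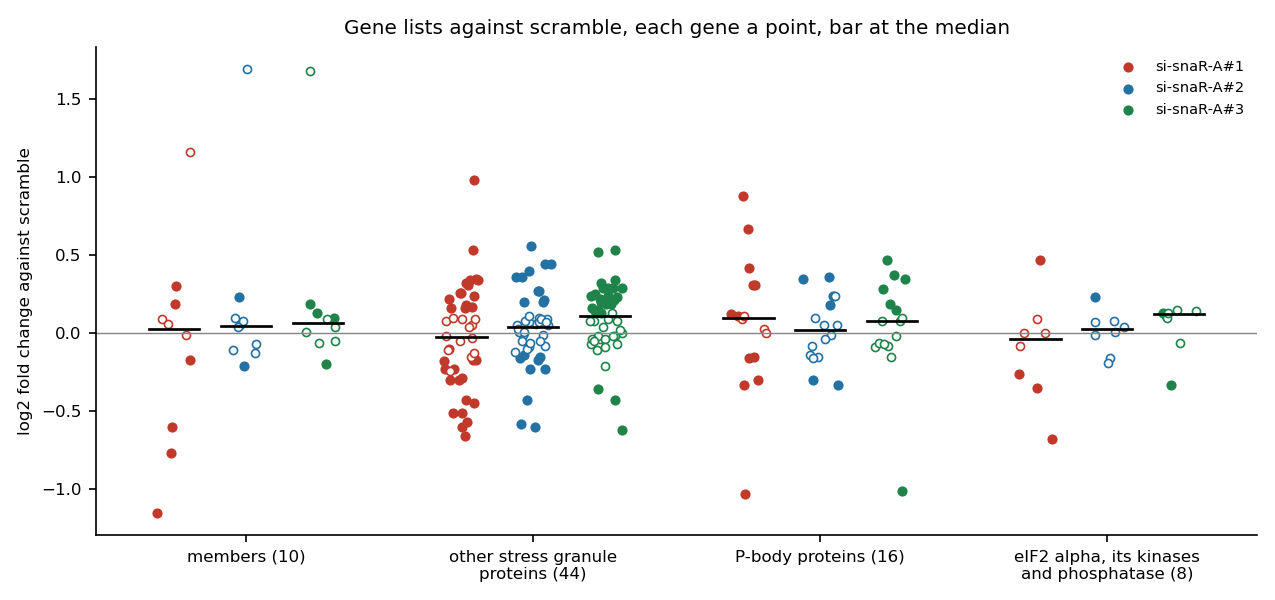
Log2 fold change against scramble of each tested gene in the 4 lists, by siRNA, with a bar at the list's median. Filled points passed an edgeR adjusted p of 0.05, and the open points above 1 in the first list are G3BP2, which was not tested; the medians lie between -0.04 and 0.12.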

How the data were processed

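The authors trimmed reads from stranded libraries (made after rRNA depletion and poly(A) enrichment) with TrimGalore and mapped them to the transcriptome with Salmon. They deposited estimated counts by Ensembl gene ID, unscaled. The build named in the submitters' processing notes is hg38, while the transcript set, how transcripts were summed to genes and whether strand was used are not given in the sources used here. Estimated counts are not exact read counts and were rounded before testing. Symbols came from GENCODE release 44, which held 58160 of the 63541 IDs. All 12 columns of the table were used.

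A single edgeR 4.0.16 model (R 4.3.3) with 1 coefficient for each group was fitted to the 12 libraries. Genes kept by filterByExpr were tested with the quasi-likelihood test after TMM scaling (factors 0.956 to 1.09). P-values were adjusted by Benjamini-Hochberg over 21999 genes and called under 0.05. SE is the absolute log2 fold change over the square root of F, and the common biological coefficient of variation was 0.117. Log2 CPM for correlations used a prior count of 2. The deposited read totals (120.4 to 180.1 M) leave replicate spread, not counting error, as the main limit: replicates differed by a chi-square of 12.3 to 58.9 per degree of freedom. The study's methods call the 3 samples of a group biological replicates handled on a single day, and neither they nor the labels say whether these were separate cultures, so p-values measure the spread between these samples.

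The members, gene lists and naming rule were chosen with earlier results of these data known. Named were the members and their paralogs, the 2 largest rises and falls per list among genes called in the mean of the siRNAs with at least 1 CPM, the 5 highest and 5 lowest correlates of G3BP2, genes overlapping a member, and cell markers. Of the genes this rule names, 1 is not reported here. Genes that overlap the named list genes were added after their values were seen. Same-numbered libraries did not deviate together more than others: r was -0.236 to 0.172 over 18 same-numbered pairs and -0.228 to 0.353 over differently numbered pairs. Replicate numbers were therefore not used as a block. Deviations shared by differently numbered libraries were not modelled. Alternatives were DESeq2 1.42.0, limma-voom (limma 3.58.1), edgeR's exact test, other scalings and filters, a replicate block, and leaving out each library. The scripts were tested on simulated data.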

Additional observations from a re-analysis of the deposited data

Results flagged for a closer look

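For 3 members the log2 differences of single siRNAs from scramble had opposite signs, and the difference between the siRNAs itself passed edgeR's quasi-likelihood test. G3BP1 differed between siRNA #1 (0.19 against scramble on the log2 scale) and siRNA #2 (-0.13) by 0.32, with an adjusted p of 2.5e-04. ATXN2 differed between siRNA #1 (-0.77) and siRNA #2 (0.08) by -0.85, with an adjusted p of 7.5e-08, and from siRNA #3 (0.19) by -0.96, with an adjusted p of 2.3e-08. PABPC1 differed between siRNA #1 (-1.15) and siRNA #2 (0.04) by -1.19, with an adjusted p of 2.2e-09, and from siRNA #3 (0.04) by -1.19, with an adjusted p of 1.3e-09. Against scramble, the values of siRNA #2 for these 3 genes and that of siRNA #3 for PABPC1 did not pass on their own. Over the alternatives run, PABPC1 lay between -0.01 and 0.07 with siRNA #2 and between -0.01 and 0.06 with siRNA #3. Its sign with these siRNAs was therefore not settled, and no rise was shown.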

How the results depend on the processing

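Counts below are of the 9 members other than G3BP2, with the value reported above in parentheses. Upper quartile scaling gave 4 calls with siRNA #2 (2) and 1 with siRNA #3 (4). Testing without a filter on low counts gave 2 calls with siRNA #3 and 1 between siRNAs #2 and #3 (2). For the mean of the siRNAs, edgeR's exact test gave 0 calls (5), with 1 gene at an unadjusted p under 0.05, and the mean of siRNAs #2 and #3 alone gave 3. In that mean ATXN2 was at 0.13 on the log2 scale (edgeR adjusted p 0.0439), the reverse of its direction with all 3 siRNAs. PABPC1 was at 0.04 there and did not pass (edgeR adjusted p 0.517). With merged exon length the share of G3BP2 was 35.3%, 51.6%, 65.9% and 62.3%. Leaving out single libraries gave 6 to 7 calls with siRNA #1 (6), 2 to 3 with siRNA #2, 1 to 4 with siRNA #3 and 4 to 6 in the mean, and 6 to 7, 4 to 5 and 0 to 2 between siRNAs #1 and #2, #1 and #3, and #2 and #3. Where a value does not show the cause of such a change, the cause was not tested. Replicate numbers did not pair the libraries: 5 of 18 same-numbered pairs had an r over 0.1, and 3 of 12 libraries correlated best with their own number. A replicate block gave 2 calls with siRNA #3 in place of 4, and 6, 2 and 5 calls with siRNA #1, siRNA #2 and in the mean. The log2 difference of G3BP2 from scramble lay between 1.12 and 1.20, 1.64 and 1.72, and 1.63 and 1.70 with the siRNAs in order over the alternatives run. TIA1 was lower with every siRNA under each of them, with adjusted p-values up to 0.0102, and the median of all genes stayed within 0.1 of 0 under other scalings.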
